A study of Mus musculus with 6 samples.

Results

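The 37 genes described here encode cytokine and growth factor receptors, taken as a list fixed by gene name and matched to the deposited table by NCBI gene ID. All 37 were among the 27179 genes of the table, and 33 of them had at least 1 CPM (a read count scaled to library size) in at least 3 of 6 libraries and were tested with 13018 genes in all. The cells were long-term haematopoietic stem cells (LT-HSC), sorted by surface markers as Lin- Sca-1+ c-Kit+ CD48- CD150+ from bone marrow of C57BL/6 mice aged 8 to 12 weeks. The mutant group (Cko) carried 2 conditional alleles of Prdm16, a zinc-finger transcriptional regulator, together with the Mx1-Cre transgene (Cko/Cko; Tg/+). The control group (WT) carried the same conditional alleles without the transgene (Cko/Cko; +/+). Mice of both genotypes were given pIpC, a synthetic RNA that triggers interferon, by 5 injections on alternate days, and cells were collected 5 weeks after this. The Mx1 promoter answers to interferon in many cell types, so recombination is not limited to stem cells. The 3 libraries of a genotype are technical replicates from 1 pool of marrow of 5 mice, so p-values measure the spread between portions of 1 sort and not between animals.

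Cytokine receptors are single-pass membrane proteins that pair on binding a ligand and signal through bound JAK kinases to STAT transcription factors. Many share a signalling chain: the common beta chain for IL-3, IL-5 and GM-CSF, the common gamma chain for IL-2, IL-4, IL-15 and IL-21, and gp130 for the IL-6 family. Receptors of the IL-1, IL-17 and TNF families signal through adaptor proteins instead, and receptor tyrosine kinases carry their own kinase domain. In stem cells these receptors are known as a route by which infection, inflammation and growth signals reach the cell.

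Libraries held 36747729 to 43743795 reads. Prdm16 had 323, 388 and 643 reads in the Cko libraries, against 1630, 1860 and 1381 in the WT libraries, which was -1.93 on the log2 scale, Cko over WT (SE 0.27, limma adjusted p = 0.00829). A list of 12 LT-HSC markers, among them Kit, Slamf1 and Procr, summed to 2744 to 3028 CPM in Cko and 2690 to 2870 CPM in WT, and all 12 were detected in both groups. The sums of several lists of mature blood cell markers stood higher in all 3 Cko libraries, though not that of T and NK cells. A list of 13 neutrophil markers summed to 1103 to 1302 CPM in Cko and 306 to 321 CPM in WT, with 9 members called higher. A list of 9 eosinophil markers summed to 554 to 654 CPM in Cko and 0.624 to 6.37 CPM in WT, with 6 called. The groups thus differed in these sums as well as in genotype. The part of these sums in the differences given below was not tested. In bulk libraries, fewer cells of a type and less RNA per cell cannot be told apart.

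One receptor gene rose in the Cko libraries and none fell by the test (limma, Benjamini-Hochberg adjusted p below 0.05), where 0.699% of all genes tested were called in either direction. It was Csf2rb, the common beta chain. That is 1 of 33 receptors, where 0.407% of all genes tested were called higher and 0.292% were called lower. Voom on the recovered reads also called 1 receptor higher and 0 lower. At an unadjusted p under 0.05, 8 receptors were higher and 1 lower in Cko, against 5.58% and 4.72% of all genes. The 3 Cko values lay wholly above the 3 WT values for 9 receptors, or 27.3%, and wholly below them for 3, or 9.09%, where 8.52% and 8.01% of all genes did so. The 33 receptors had a median log2 fold change of 0.10, beside 0.003 over all genes, and 20 of the 33 had a value above 0, beside 50.5% of all genes. Among the 33, 29 had at least 1 CPM in every library. Lepr and Il10ra passed the filter with the 3 Cko libraries and 1 WT library, so their presence among the genes tested depended mostly on the group in which they were higher.

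**Figure D1:**
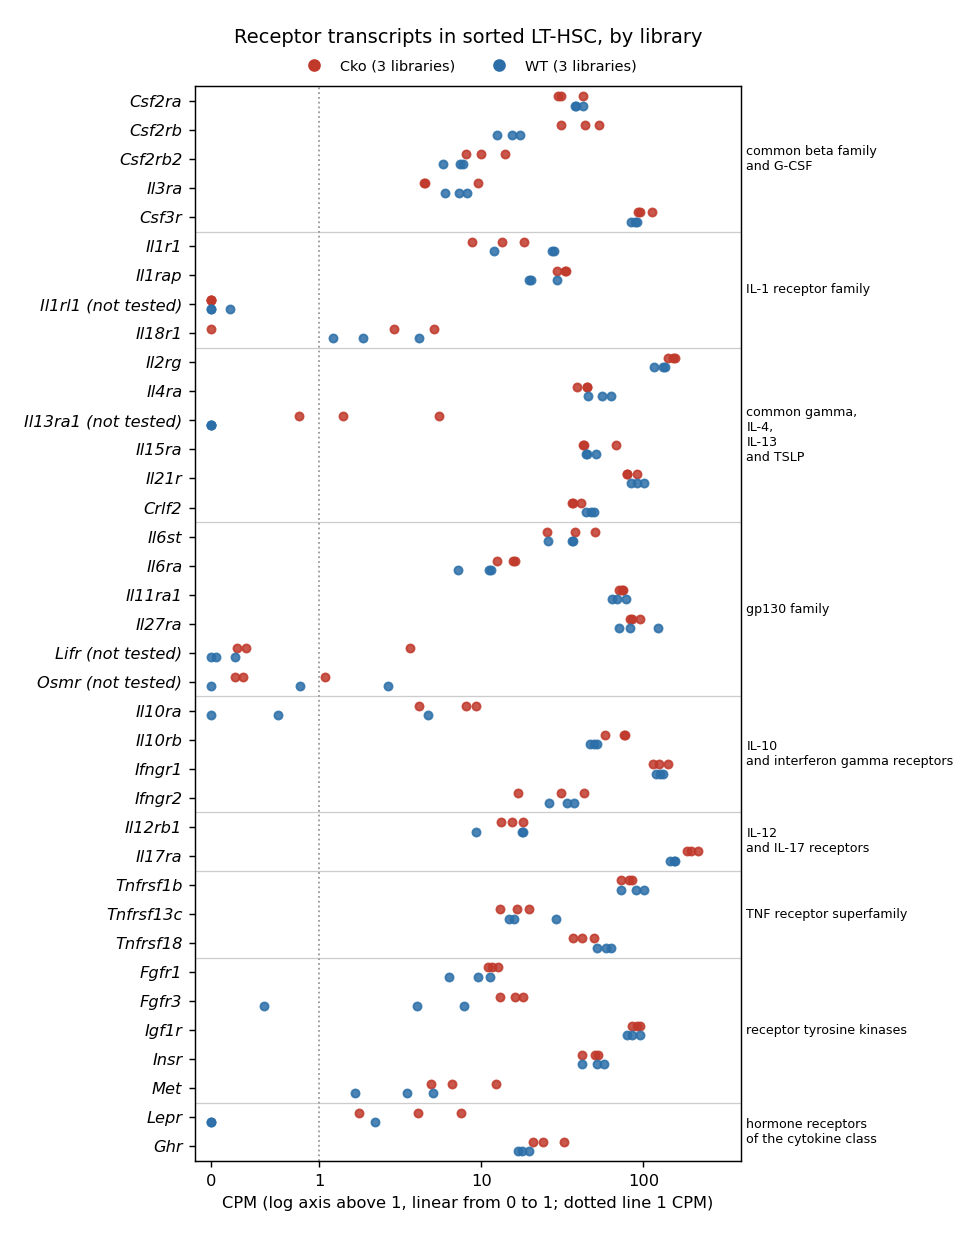
CPM of all 37 receptors in each of the 6 libraries, grouped by receptor class, with Cko libraries in red above WT libraries in blue; the axis is logarithmic above 1 CPM and linear below. Levels spanned from 0 CPM for Il1rl1 in every Cko library to 216.2 CPM for Il17ra, and the 2 colours separate fully for Csf2rb, Fgfr3, Il17ra and 9 other tested receptors.

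**Figure D2:**
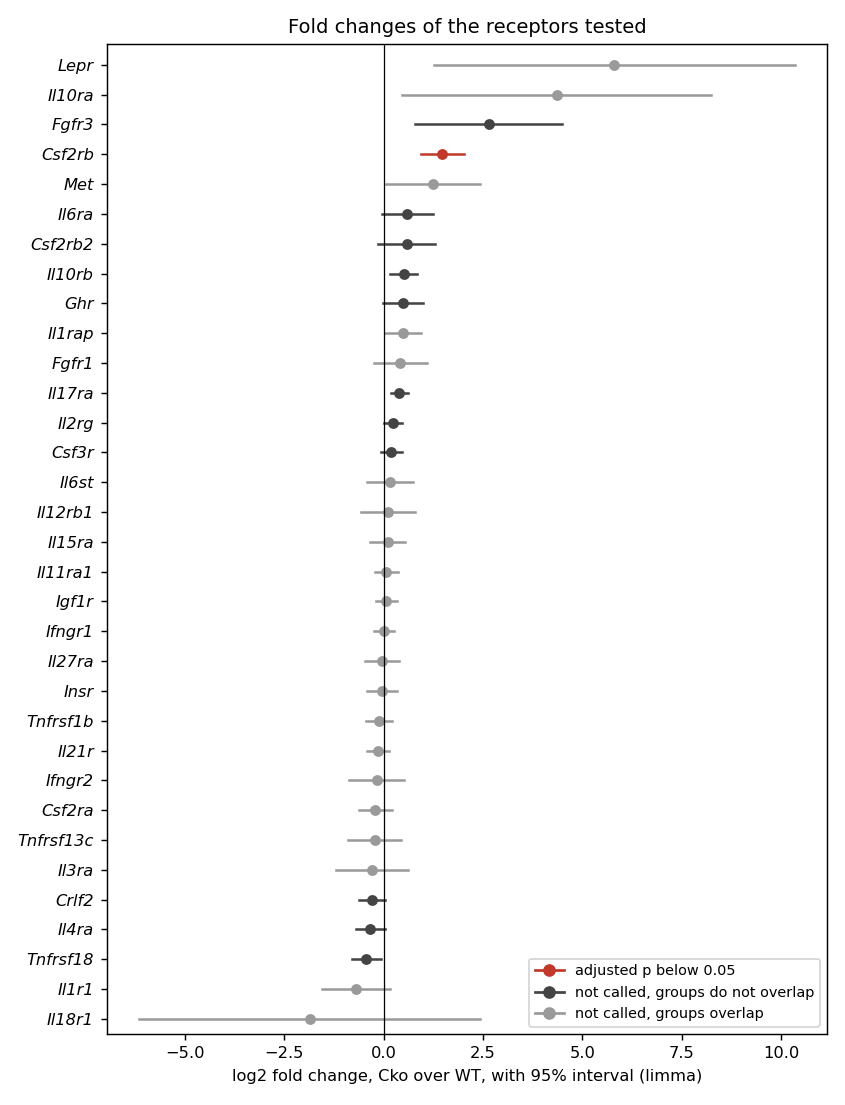
Log2 fold changes (Cko over WT) of the 33 receptors tested with 95% intervals from limma, in order of size; red marks adjusted p below 0.05, dark grey marks groups that do not overlap and light grey groups that overlap. Csf2rb is the 1 receptor in red, at 1.47 with an interval of 0.94 to 2.01. The widest intervals belong to receptors with a library at or near 0.

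Promoters are shown for 3 receptors that share a STAT motif and whose levels lay in different order between the groups. The RefSeq promoter table (GRCm38.p6, 250 bases before to 50 after each gene start) held promoters of 29 of the 37 receptors. The motif TTCNNNGAA, which STAT factors bind and which reads the same on both strands, was found in 4 of the 39 promoters of these 29 receptors (10.3%), those of Csf2rb2, Tnfrsf18, Tnfrsf1b and Il18r1. It was present in 8.3% of all 32851 promoters in the table. Csf2rb2 was wholly higher and Tnfrsf18 wholly lower in Cko, while Tnfrsf1b overlapped between the groups. The promoters of these 3 are shown 5′ to 3′ on the strand of the gene with the motif in capitals, and a match is a description of letters, not of binding.

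Csf2rb2 promoter, chr15:78305672-78305971 (minus strand): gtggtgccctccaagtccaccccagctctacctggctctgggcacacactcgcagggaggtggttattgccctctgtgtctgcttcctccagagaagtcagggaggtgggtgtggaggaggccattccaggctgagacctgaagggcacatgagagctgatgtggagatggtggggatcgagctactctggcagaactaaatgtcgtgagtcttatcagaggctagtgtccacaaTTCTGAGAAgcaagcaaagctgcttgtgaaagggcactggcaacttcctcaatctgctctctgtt
Tnfrsf18 promoter, chr4:156026072-156026371 (plus strand): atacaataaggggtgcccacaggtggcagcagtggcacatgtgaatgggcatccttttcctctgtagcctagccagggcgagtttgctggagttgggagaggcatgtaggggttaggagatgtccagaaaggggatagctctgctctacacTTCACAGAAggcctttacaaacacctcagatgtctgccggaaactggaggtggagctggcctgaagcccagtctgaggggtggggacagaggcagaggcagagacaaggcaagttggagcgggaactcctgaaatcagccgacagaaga
Tnfrsf1b promoter, chr4:145246821-145247120 (minus strand): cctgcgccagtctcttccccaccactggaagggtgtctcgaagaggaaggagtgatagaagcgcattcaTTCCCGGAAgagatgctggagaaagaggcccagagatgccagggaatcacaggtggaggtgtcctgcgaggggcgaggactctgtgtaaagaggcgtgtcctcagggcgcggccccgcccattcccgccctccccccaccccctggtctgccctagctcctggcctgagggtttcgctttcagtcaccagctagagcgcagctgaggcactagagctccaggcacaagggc

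Counted from the gene start, the motif began at position -15 in Csf2rb2, -99 in Tnfrsf18 and -181 in Tnfrsf1b. No promoter of Csf2rb, Il10ra, Il10rb, Il12rb1, Il17ra, Il27ra, Fgfr1 or Insr was used.

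Csf2rb (chromosome 15, 78325800 to 78351001, mm10) encodes the signalling chain shared by the receptors for IL-3, IL-5 and GM-CSF, cytokines that drive myeloid cell production. Its level was 43.5, 31.0 and 53.0 CPM in the Cko libraries, against 12.5, 15.4 and 17.3 CPM in the WT libraries. Every Cko library stood above every WT library, and the lowest Cko value was well over the highest WT value. The log2 fold change was 1.47 (SE 0.24, adjusted p = 0.0214), or 2.78-fold. The values rest on 1608, 1331 and 2317 reads in Cko and 504, 568 and 756 reads in WT. Leaving out 1 library at a time gave log2 fold changes of 1.30 to 1.68, and the call was lost in 9 of 12 such fits (adjusted p up to 0.142). Each fit was run in 2 ways, repeating the filter or keeping the 13018 genes. The adjusted p was 0.096 and 0.124 without Cko replicate 1, and 0.13 and 0.142 without Cko replicate 3. It was 0.05 (called) and 0.0524 without WT replicate 1, 0.0547 and 0.0555 without WT replicate 2, and 0.0514 and 0.0517 without WT replicate 3. The call held in both fits without Cko replicate 2 (0.0286 and 0.0374).

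Csf2rb2 (chromosome 15, 78282507 to 78305721) lies 20.1 kb from Csf2rb and is the mouse copy of the beta chain that serves IL-3 alone. It had 10, 13.9 and 8.03 CPM in the Cko libraries, against 5.82, 7.76 and 7.43 CPM in the WT libraries. The groups did not overlap, but the gap was small and the log2 fold change of 0.58 (SE 0.32, adjusted p = 0.57) did not pass the test. The copies are similar: 12.3% of the distinct 50-base windows of Csf2rb transcripts also occur in another gene, nearly all of them in Csf2rb2, and 18.9% of the windows of Csf2rb2 are shared. The sources used here do not say how the authors' counting treated such reads, so the split between the copies is uncertain. With the reads of both genes summed, an alternative added after seeing the data, the pair had a log2 change of 1.27 (SE 0.19, adjusted p = 0.0132).

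Alpha chains bind the ligand and confer its specificity, and those for GM-CSF and IL-3 had intervals of the log2 fold change that included 0. Csf2ra, the alpha chain for GM-CSF, was at 34.5 ± 7.06 CPM in Cko and 39.4 ± 2.39 CPM in WT (SD, n = 3 each), with a log2 fold change of -0.21 (95% interval -0.62 to 0.20). Il3ra, the alpha chain for IL-3, was at 6.15 ± 2.94 CPM in Cko and 7.11 ± 1.12 CPM in WT, with a log2 fold change of -0.30 (interval -1.19 to 0.60). Per kilobase of merged exons (RPKM), the ratio of Csf2rb to Csf2ra was 0.403, 0.392 and 0.706 in the Cko libraries, against 0.117, 0.158 and 0.182 in the WT libraries. The ratio of Csf2rb to Il3ra was 4.0, 1.32 and 4.84 in Cko and 0.856, 0.867 and 0.866 in WT. Neither ratio overlapped between the groups, and both hold the same Csf2rb values, so they are not independent of its rise. The ratio of Csf2rb to Csf2rb2 was 2.82, 1.45 and 4.3 in Cko and 1.4, 1.29 and 1.52 in WT, and overlapped.

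**Figure D3:**
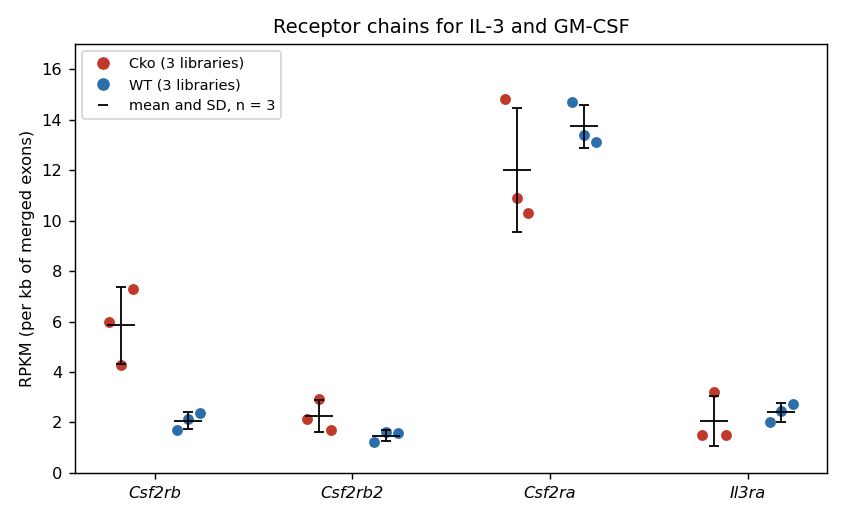
RPKM of the beta chains Csf2rb and Csf2rb2 and the alpha chains Csf2ra and Il3ra, with Cko libraries left of WT libraries and black bars for the mean and SD of 3 libraries. Csf2rb averaged 5.84 RPKM in Cko and 2.07 RPKM in WT, while Csf2ra averaged 12.0 RPKM in Cko and 13.7 RPKM in WT with overlapping libraries.

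Csf3r, the receptor for G-CSF, the cytokine that drives neutrophil production, was among the more abundant receptors at 26.1 RPKM over all libraries. It had 95.4, 92.7 and 113.5 CPM in the Cko libraries, against 83.3, 91.3 and 88.7 CPM in the WT libraries. The groups were close without overlapping, and the log2 fold change of 0.19 (SE 0.12, adjusted p = 0.616) did not pass the test. Of the 50-base windows of Csf3r, 10.75% also occur in other genes.

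Il5ra, the alpha chain for IL-5 and a member of the eosinophil list, had 1.38, 2.24 and 1.92 CPM in the Cko libraries, against 0.223, 0 and 0 CPM in the WT libraries (adjusted p = 0.357). Its groups did not overlap. Of the eosinophil list Epx and Ear1 had no reads in any WT library, and of the neutrophil list Mmp8 had none. Basophil and mast cell markers summed to 91.1 to 101.5 CPM in Cko and 12.9 to 18.0 CPM in WT (2 of 10 called higher), and 4 of the 10, Gzmb, Cma1, Tpsab1 and Tpsb2, had no reads in any Cko library. Those 4 and Prss34, Mcpt8, Ms4a2 and Cd200r3 had none in any WT library. Monocyte and macrophage markers summed to 801 to 911 CPM in Cko and 577 to 595 CPM in WT. Of these 10, 2 were called higher by limma and 3 called by voom, and Adgre1 was at 0 in every WT library. Most of this sum was Lyz2 (mean log2 CPM 9.35 over 6 libraries, log2 fold change 0.44, limma adjusted p = 0.00818). Cd68 had a log2 fold change of 0.01 (limma adjusted p = 0.996), and 5 of the 8 tested passed an unadjusted p under 0.05. B and plasma cell markers summed to 235.7 to 250.5 CPM in Cko and 60.1 to 67.7 CPM in WT (1 of 10 called higher by limma, 2 called by voom). Each of these sums was higher in every Cko library, as was Csf2rb, and their part in its rise was not tested. The erythroid sum was 99.2 to 106.3 CPM in Cko and 57.5 to 79.7 CPM in WT with 0 called by limma or voom and 6 at an unadjusted p under 0.05. The stromal sum was 36.9 to 46.3 CPM in Cko and 22.8 to 25 CPM in WT, with 1 called higher by limma and 0 by voom, and 2 at an unadjusted p under 0.05. The sums of T and NK cell markers (94.8 to 122.3 CPM in Cko, 76.2 to 101.0 CPM in WT) and of endothelial markers (335.6 to 408.3 CPM in Cko, 355.2 to 374.6 CPM in WT) overlapped. Both of these lists had 0 called by limma or voom, with 0 and 2 members at an unadjusted p under 0.05.

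**Figure D4:**
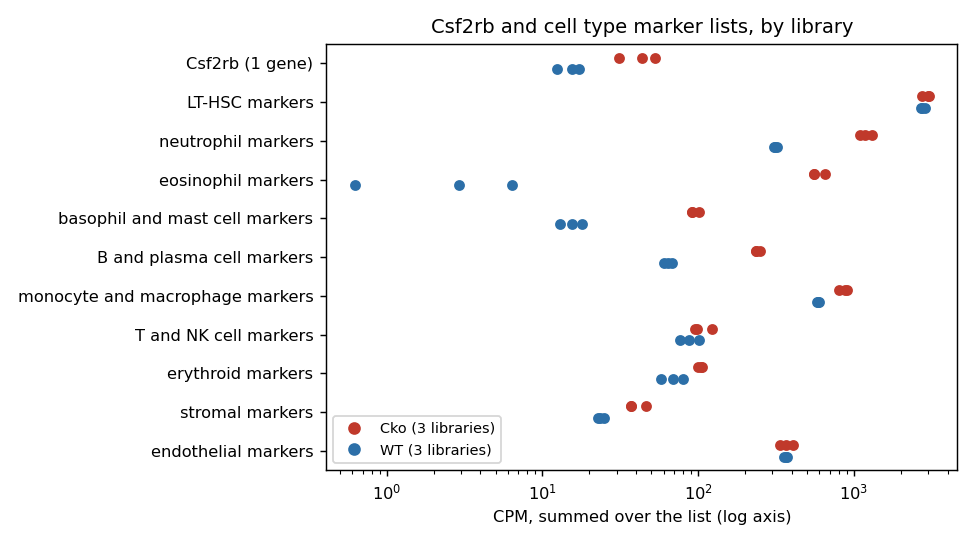
CPM of Csf2rb and summed CPM of 10 cell type marker lists in each library on a log axis, with Cko libraries in red above WT libraries in blue. Csf2rb and the neutrophil, eosinophil, basophil, B cell, monocyte, erythroid and stromal sums separate by group, and the LT-HSC, T cell and endothelial sums overlap.

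The IL-1 receptor family passes inflammatory signals through the adaptor MyD88, and 0 of its 3 tested genes were called by limma or voom, with 1 at an unadjusted p under 0.05. Il1rap, the accessory chain shared by the receptors for IL-1 and IL-33, had 29.2, 33.5 and 32.8 CPM in the Cko libraries, against 19.8, 29.5 and 20.2 CPM in the WT libraries. WT replicate 2 reached the range of the Cko libraries, and the log2 fold change was 0.48 (SE 0.21, adjusted p = 0.461). Il1r1, the chain that binds IL-1, was at 13.5 ± 4.74 CPM in Cko and 22.5 ± 9.11 CPM in WT, with a log2 change of -0.70 (SE 0.38, adjusted p = 0.565). WT replicate 3 (11.9 CPM) lay within the Cko range of 8.79 to 18.3 CPM. The RPKM ratio of Il1rap to Il1r1 was 1.86, 1.4 and 1.0 in the Cko libraries, against 0.393, 0.606 and 0.946 in the WT libraries. These ratios did not overlap, although Cko replicate 3 and WT replicate 3 were close. Il18r1, the binding chain for IL-18, had 0, 2.89 and 5.08 CPM in the Cko libraries and 4.11, 1.22 and 1.86 CPM in the WT libraries. The sign of its fitted change turned on Cko replicate 1, where it had no reads: without that library the log2 fold change was 0.86. Il1rl1, the IL-33 receptor ST2 of mast cells and basophils, had no reads in any Cko library and 0.173, 0 and 0 CPM in WT, too few to test.

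Il2rg, Il4ra, Il13ra1, Il15ra, Il21r and Crlf2 form the receptors of the common gamma family with those for IL-13 and TSLP. None of the 5 tested was called by limma or voom, nor passed an unadjusted p under 0.05. Il2rg, the common gamma chain, was the most abundant receptor per kilobase, at 58.3 RPKM over all libraries. It had 152.8, 141.2 and 155.9 CPM in the Cko libraries, against 135.5, 115.9 and 133.0 CPM in the WT libraries. The groups did not overlap, and the log2 fold change was 0.23 (SE 0.10, adjusted p = 0.488). Its exons overlap a gene model on the same strand (Gm20489) that shares 27.5% of its 50-base windows.

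Il4ra, Il21r and Crlf2 had negative log2 fold changes that did not pass the test. Il4ra, which binds IL-4, had 44.6, 44.9 and 39.2 CPM in the Cko libraries, against 55.4, 45.4 and 63.2 CPM in the WT libraries. Its groups were separated by a narrow gap, with a log2 change of -0.34 (SE 0.16, adjusted p = 0.508). Gm44876 on the opposite strand overlaps its exons and shares 8.44% of its 50-base windows. Il21r, which binds IL-21 and lies 23.8 kb from Il4ra on chromosome 7, was at 83.5 ± 7.25 CPM in Cko and 91.8 ± 8.00 CPM in WT, with a log2 fold change of -0.14 and overlapping groups. Crlf2, the receptor for TSLP, had 36.5, 41.3 and 36.7 CPM in the Cko libraries, against 47.5, 44.1 and 49.5 CPM in the WT libraries. All 3 Cko values were below all 3 WT values, and the log2 fold change was -0.30 (SE 0.15, adjusted p = 0.515).

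The RPKM ratio of Il2rg to Il4ra was 8.62, 7.91 and 10 in the Cko libraries, against 6.15, 6.42 and 5.29 in the WT libraries. The ratio of Il2rg to Il21r was 2.32, 2.48 and 2.74 in Cko and 1.88, 1.78 and 2.20 in WT. Neither ratio overlapped, and both share the Il2rg values. In all, 9 ratios between paired chains were computed and 5 did not overlap. They were chosen after the levels were seen and are given without a test. Il15ra, the IL-15 binding chain, was at 51.1 ± 14.6 CPM in Cko and 46.7 ± 3.91 CPM in WT, with a fitted log2 change of 0.10 that was -0.12 without Cko replicate 1. Il13ra1, which joins Il4ra to bind IL-13, had 5.47, 0.815 and 1.4 CPM in the Cko libraries and no reads in any WT library. It was below the level for testing. Against a floor of 3 reads per WT library it was at least 34.2-fold higher in Cko on the mean. Without Cko replicate 1, which stood well above the other libraries, this bound was 14.8-fold, a value added after seeing the data.

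Of the gp130 family 4 genes of 6 were tested, and 0 were called by limma or voom or passed an unadjusted p under 0.05. Il6st, which encodes gp130, was at 37.8 ± 12.4 CPM in Cko and 33 ± 6.43 CPM in WT with overlapping groups (log2 fold change 0.16, 95% interval -0.41 to 0.74). The sign of that change turned without Cko replicate 3 (-0.07) or WT replicate 1 (-0.01). Il6ra, the IL-6 binding chain, had 15.6, 12.5 and 16.2 CPM in the Cko libraries, against 11.2, 11.5 and 7.13 CPM in the WT libraries. Its groups did not overlap, and the log2 fold change was 0.59 (SE 0.28, adjusted p = 0.507). Il11ra1, the IL-11 binding chain, was at 73.3 ± 2.05 CPM in Cko and 70.5 ± 7.41 CPM in WT. Of its 50-base windows 46.3% also occur in the near-identical copies Gm13305 and Il11ra2, so its level is uncertain. Il27ra, the IL-27 receptor, was at 87.3 ± 6.66 CPM in Cko and 92.1 ± 27.7 CPM in WT, where WT replicate 3 reached 123.2 CPM. Lifr and Osmr, the chains for LIF and oncostatin M, were not tested: Lifr had 0.243, 0.326 and 3.62 CPM in Cko and 0.223, 0 and 0.0459 CPM in WT, and Osmr had 0.216, 1.09 and 0.298 CPM in Cko and 2.67, 0 and 0.825 CPM in WT. Each owed most of its reads to a single library.

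The class II receptors for IL-10 and interferon gamma had 4 genes tested and 0 called by limma or voom, with Il10rb and Il10ra at an unadjusted p under 0.05. Il10rb, the chain shared by the receptors for IL-10, IL-22 and interferon lambda (chromosome 16, 91406157 to 91425834), had 77.3, 75.7 and 57.7 CPM in the Cko libraries, against 46.7, 51.4 and 49.5 CPM in the WT libraries. Every Cko library was above every WT library, and the log2 fold change was 0.50 (SE 0.15, adjusted p = 0.271). A gene model on the same strand, Gm21970, shares 13.6% of its 50-base windows. Il10ra, the IL-10 binding chain, had 9.31, 4.15 and 8.03 CPM in the Cko libraries, against 0, 4.69 and 0.619 CPM in the WT libraries. WT replicate 2 lay within the Cko range, and the adjusted p was 0.419.

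Ifngr1 and Ifngr2, the binding and signalling chains for interferon gamma, overlapped between the groups. Ifngr1 was the second receptor in order of RPKM, with 141.1, 124.0 and 114.7 CPM in the Cko libraries, against 119.4, 132.8 and 126.4 CPM in the WT libraries. These ranges overlapped throughout, and the log2 fold change was 0.00 with a 95% interval of -0.25 to 0.25. Ifngr2, 121.2 kb from Il10rb on chromosome 16, was at 30.3 ± 13.1 CPM in Cko and 32.4 ± 5.76 CPM in WT. Its lowest value was in Cko replicate 1 (16.8 CPM), and without that library its log2 fold change was 0.19 in place of -0.18.

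Il17ra, the chain shared by the receptors for IL-17 cytokines (chromosome 6, 120463181 to 120483731), had the most reads of all the receptors. Its level was 216.2, 184.5 and 197.5 CPM in the Cko libraries, against 157.7, 145.1 and 153.6 CPM in the WT libraries. The groups did not overlap and the libraries of each group were close together. The log2 fold change was 0.39 (SE 0.09, 95% interval 0.18 to 0.60), the second smallest p of the 33 receptors, but the adjusted p of 0.149 did not pass the test. Leaving out 1 library at a time gave 0.33 to 0.44. Il17re, the chain that joins Il17ra to bind IL-17C, is not among the 37 receptors and had a negative log2 fold change that did not pass the test. It had 17.6, 18.2 and 19.7 CPM in the Cko libraries, against 37.8, 39.4 and 29.4 CPM in the WT libraries (log2 fold change -0.93, SE 0.19, adjusted p = 0.0756). Il12rb1, which serves IL-12 and IL-23, was at 15.6 ± 2.42 CPM in Cko and 15 ± 5.04 CPM in WT. Its log2 fold change was 0.11, and -0.21 without WT replicate 1.

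The 3 receptors of the TNF superfamily had negative log2 fold changes, and 0 were called by limma or voom. Tnfrsf18, which encodes GITR, a costimulatory receptor best known in T cells, was the 1 receptor lower in Cko at an unadjusted p under 0.05. It had 36.8, 49.9 and 41.5 CPM in the Cko libraries, against 62.7, 59.0 and 52.0 CPM in the WT libraries. The highest Cko library came close to the lowest WT library without reaching it, and the log2 fold change was -0.44 (SE 0.16, adjusted p = 0.369). Its exons overlap Gm16008 on the opposite strand, which shares 18.7% of its 50-base windows. The strand setting of the counting is unknown, so how reads in the overlap were assigned is uncertain. Tnfrsf1b, the second TNF receptor, was at 79.9 ± 6.37 CPM in Cko and 87.9 ± 14.1 CPM in WT. Tnfrsf13c, the receptor for the B cell survival factor BAFF, was at 16.5 ± 3.35 CPM in Cko and 20.0 ± 7.86 CPM in WT, and its log2 fold change of -0.23 was 0.08 without WT replicate 2. Of the T and NK cell markers, Cd3e, Cd8a and Ncr1 had no reads in any library. Cd3g, Cd3d and Gzma had none in any WT library but had reads among the Cko libraries.

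Of the 5 receptor tyrosine kinases 0 were called by limma or voom, with Fgfr3 and Met at an unadjusted p under 0.05. Fgfr3, a receptor for fibroblast growth factors (chromosome 5, 33721724 to 33737068), had 18.2, 13.0 and 16.1 CPM in the Cko libraries, against 4.01, 0.488 and 7.86 CPM in the WT libraries. The Cko libraries were even and all above the WT libraries, which spread widely among themselves. The log2 fold change was 2.64 (SE 0.83, adjusted p = 0.286), with 1.47 to 3.46 on leaving out 1 library at a time. Without WT replicate 2, the lowest library, it was 1.47. The antisense model G630022F23Rik overlaps its exons and shares 11.2% of its windows.

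Met, the receptor for hepatocyte growth factor, had 6.57, 12.3 and 4.87 CPM in the Cko libraries, against 1.66, 5.05 and 3.49 CPM in the WT libraries. WT replicate 2 exceeded Cko replicate 3, and the log2 fold change was 1.25 (SE 0.53, adjusted p = 0.452). Fgfr1 was at 11.8 ± 0.803 CPM in Cko and 9.01 ± 2.52 CPM in WT with overlapping groups. The insulin-like growth factor receptor Igf1r and the insulin receptor Insr had intervals that included 0. Igf1r was at 90.7 ± 5.35 CPM in Cko and 86.9 ± 8.23 CPM in WT (95% interval of the log2 fold change -0.20 to 0.33). Insr was at 48.3 ± 5.91 CPM in Cko and 50.1 ± 7.57 CPM in WT (interval -0.43 to 0.33).

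Lepr and Ghr bind the hormones leptin and growth hormone through receptors of the cytokine class. Neither was called by limma or voom, and Lepr passed an unadjusted p under 0.05. Ghr had 32.2, 23.9 and 20.7 CPM in the Cko libraries, against 17.7, 16.8 and 19.7 CPM in the WT libraries. The groups did not overlap, Cko replicate 1 standing highest, and the log2 fold change was 0.48 (SE 0.22, adjusted p = 0.492). Lepr, known in marrow as a marker of stromal cells, had 4.09, 1.77 and 7.44 CPM in the Cko libraries, against 0, 2.20 and 0 CPM in the WT libraries. WT replicate 2 lay within the Cko range, and the adjusted p was 0.349. The stromal list of 10 genes that holds Lepr gave the sums stated above, and its members Col3a1, Dcn, Lum and Pdgfra had no reads in any WT library, Lum none in any Cko library either.

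**Figure D5:**
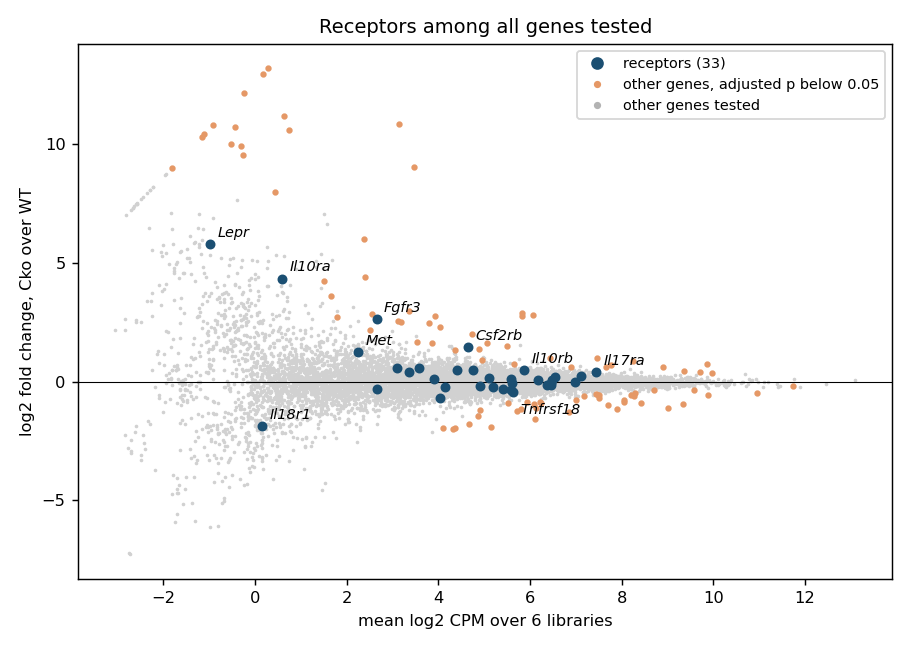
Log2 fold change (Cko over WT) against mean log2 CPM for the 13018 genes tested, with the 33 receptors in dark blue, other genes at adjusted p below 0.05 in orange and the rest in grey. Most receptors lie within the grey cloud at their level; Csf2rb is at its upper edge, and Lepr, Il10ra and Il18r1 lie where genes with few reads spread widely.

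The other genes of the pathway were counted over 5 lists. Of 11 JAK and STAT genes, all tested, 0 were called by limma or voom and 0 passed an unadjusted p under 0.05, with a median log2 fold change of -0.09. Jak1, a kinase bound by many of these receptors, had the smallest p, at 454.5 ± 40.4 CPM in Cko and 508.5 ± 14.7 CPM in WT (log2 fold change -0.17, adjusted p = 0.488). Stat2, a factor of type I interferon signalling, followed at 84.2 ± 11.2 CPM in Cko and 61.6 ± 20.0 CPM in WT (0.50, adjusted p = 0.489). Of 44 ligands of the receptors 15 were tested, with 0 called by limma or voom and 3 at an unadjusted p under 0.05. Over all genes tested, 10.3% passed that unadjusted p in either direction.

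Of the 15 ligands tested, Igf1, Ebi3 and Il1b were wholly higher in Cko and Ctf1 was wholly lower, where 8.52% and 8.01% of all genes were so. Ctf1, which encodes cardiotrophin 1, was at 16.5 ± 2.08 CPM in Cko and 20.5 ± 2.27 CPM in WT (log2 fold change -0.32, SE 0.22, adjusted p = 0.638). Igf1, insulin-like growth factor 1, was at 12.6 ± 3.87 CPM in Cko and 4.49 ± 3.79 CPM in WT (log2 fold change 1.80, SE 0.58, adjusted p = 0.298). Ebi3, a subunit of IL-27, was at 51.9 ± 7.89 CPM in Cko and 37.3 ± 2.75 CPM in WT (0.47, SE 0.16, adjusted p = 0.337). Il1b, which encodes IL-1 beta, was at 3.60 ± 0.983 CPM in Cko and 1.16 ± 0.259 CPM in WT (adjusted p = 0.384); it and Ctf1 were named after their values were seen. Their receptor chains Igf1r, Il27ra and Il1r1, given above, overlapped between the groups. Among 38 other cytokine and growth factor receptors 21 were tested, with 0 called by limma or voom. At an unadjusted p under 0.05 there were 6, beside 10.3% of all genes. Flt3, Csf1r, Epor and Il5ra were wholly higher in Cko and Il17re and Il1rl2 wholly lower, beside 8.52% and 8.01% of all genes. Csf1r was at 11.9 ± 9.53 CPM in Cko and 0.95 ± 1.25 CPM in WT (adjusted p = 0.277). Epor was at 39.4 ± 1.65 CPM in Cko and 27.8 ± 3.36 CPM in WT (adjusted p = 0.308). Csf1r, Epor and Il1rl2 were named after their values were seen. Il17re and Flt3 had the smallest p of the 21. Flt3, a receptor of multipotent progenitors, was at 50.8 ± 7.15 CPM in Cko and 29.9 ± 2.71 CPM in WT (log2 fold change 0.76, SE 0.17, adjusted p = 0.0985).

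The IL-1 signalling adaptors (11 tested) and the receptor tyrosine kinase adaptors (13 of 14 tested) had 0 called by limma or voom, with 1 and 2 at an unadjusted p under 0.05. Map3k7, the kinase TAK1, was at 59.8 ± 2.61 CPM in Cko and 48.0 ± 3.25 CPM in WT (log2 fold change 0.32, adjusted p = 0.443). Traf6, a ubiquitin ligase of IL-1 signalling, was at 63.1 ± 10.3 CPM in Cko and 80.1 ± 11.2 CPM in WT (-0.35, adjusted p = 0.489). The FGF receptor adaptors Frs2 and Frs3 had log2 fold changes of opposite sign that did not pass the test. Frs2 was at 37.1 ± 2.10 CPM in Cko and 53.3 ± 13.8 CPM in WT (-0.49, adjusted p = 0.419), and Frs3 was at 2.71 ± 0.752 CPM in Cko and 0.749 ± 0.521 CPM in WT (2.08, adjusted p = 0.435).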

How the data were processed

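RNA sequencing was done on sorted LT-HSC, with 3 Cko and 3 WT libraries of 36747729 to 43743795 reads. The authors deposited log2 values (log2 CPM with 0.5 reads added) for each gene. The tools they used were HISAT2, featureCounts, limma and FastQC with build mm10, per the submitters' processing notes. Tool versions, strand setting and handling of shared reads: not given in the sources used here. Reads were recovered from the steps of the deposited values, 100.0% whole within 0.01, and CPM computed from them. No column was left unmapped to a sample. Symbols came from RefSeq (GRCm38.p6; 25275 IDs matched, 1904 unmatched); RPKM used merged exon lengths of GENCODE (release M21). Genes reaching 1 CPM in 3 or more libraries entered a limma fit (limma 3.58.1, R 4.3.3; eBayes with trend, no block), adjusted by Benjamini-Hochberg over 13018 genes and called below 0.05. The fit was tested on simulated data. Fold changes are Cko over WT. A count of 0 entered the fit with the 0.5 reads added in the deposited values. The floor of 3 reads per WT library was used only for the fold bound of Il13ra1 and covers counting error only. The receptors, gene lists and tests were chosen with earlier results of these data known. Library values are given for receptors that were called, did not overlap, had the 10 smallest p-values or the 3 highest CPM; from pathway lists the 2 smallest p-values are given. The same-number pairing check is in the closing section. Figures used matplotlib 3.10.9 in Python 3.11.15.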

Additional observations from a re-analysis of the deposited data

How the results depend on the processing

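The Csf2rb call held in 9 of 11 settings other than leaving out a library. It was lost without the low-value filter (adjusted p = 0.116) and without the variance trend (0.137), where 0 receptors were called higher. The first setting tests more genes, and the cause of either loss was not tested. No receptor was called lower in any setting run. Over all genes, 53 were higher and 38 lower. The counts were 19 and 14 without the filter and 105 and 59 with log2(CPM + 1). Without the trend 15 were lower. Same-numbered Cko and WT libraries deviated together by correlations of -0.01, -0.02 and 0.02 across genes, so the numbers are not taken as pairs, and not every library correlated best with its own number. With a replicate block 44 genes were higher and 23 lower, and Csf2rb stayed called (adjusted p = 0.045). Leaving out 1 library at a time gave 0 to 1 receptors higher. Over all genes, leaving out 1 library gave 20 to 66 higher and 19 to 31 lower; fits keeping the genes of all 6 libraries gave 28 and 24 without Cko replicate 1, 22 higher without Cko replicate 2, and 25 and 22 lower without WT replicates 2 and 3. In these fits the sign of the log2 fold change turned for Il18r1 (-3.42 to 0.86), Il15ra (-0.12 to 0.22), Il6st (-0.07 to 0.42), Il11ra1 (-0.01 to 0.14), Il27ra (-0.21 to 0.19), Ifngr2 (-0.49 to 0.19), Il12rb1 (-0.21 to 0.28), Tnfrsf13c (-0.40 to 0.08) and Insr (-0.17 to 0.05), none of them called. Ifngr1, with a log2 fold change of 0.00 in the fit of all 6 libraries, also lay on both sides of 0 (-0.08 to 0.07) and was not called. With 3 portions of 1 sort per genotype, differences between mice cannot be separated from the genotype.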
